A study of Sus scrofa with 48 samples.

Results

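The respiratory chain and ATP synthase genes described here are those whose symbol starts with NDUF, SDH (SDHA to SDHD), UQCR, COX4 to COX8, CYC1 or ATP5. They were found through the pig accession that the array design gives for each probe, whatever their signal. The reference table held 78 such genes, and 18 of them had at least 1 probe whose accession could be matched, which gave 25 of the 43603 probes on the array. Complex I had 4 genes, complex II 2, complex III 1, complex IV 7 and the ATP synthase 4. Most of the array carried no usable name, since 2628 probes could be paired with a symbol and 4803 probes with an Ensembl transcript accession could not. The genes without a matched probe are therefore not described here, and nothing can be said of them. ATP5L, an ATP synthase gene that a supplementary list of the study names, also had no matched probe.

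Mitochondria make most of the ATP of muscle, liver and kidney by passing electrons from NADH and succinate through complexes I to IV of the inner membrane, and the protons pumped on the way drive the ATP synthase. The nuclear genes described here encode subunits that are imported and assembled with subunits made from mitochondrial DNA. Several subunits of complex IV exist in a form typical of heart and skeletal muscle and a form of wider distribution, and kidney tubules, like oxidative muscle fibres, are rich in mitochondria.

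The samples were 48 single-colour arrays, 1 for each of gluteus muscle (GM), liver and kidney of 16 F2 Swiss Large White pigs. The F0 boars at the head of the male line had been given, between 1 and 10 months of age, either a standard diet or the same diet with more methionine, choline, betaine, vitamin B6, vitamin B12 and folate. Their F1 sons and the F2 pigs were fed the standard diet alone, so that the F2 pigs were never fed the supplement themselves. The 8 F2 pigs from supplemented boars are called F2 E and the 8 from control boars F2 C, each group with 4 barrows and 4 females. Replicate numbers follow the labels, and F2 E replicates 4 to 8 are different pigs in different tissues, while F2 E replicates 1 to 3 and all F2 C replicates keep their pig. The labels give no age for the F2 pigs and do not name their F1 sires or litters.

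Levels are log2 of the quantile-normalized spot intensity. GM, liver and kidney were compared on all 48 arrays normalized together, and F2 E with F2 C on the 16 arrays of each tissue normalized by themselves, so the levels of the parts on tissue and on line are on different scales. The precision is limited by the number of arrays. The median spot signal of an array lay between 48 and 88.5 in GM, between 88 and 167 in liver and between 48 and 240.5 in kidney. A pair of kidney arrays, F2 E replicates 5 and 7, had a median spot signal of 48 each, against at least 100 on the other kidney arrays. Every probe of the 18 genes except those of COX8H was well above the local background on all 16 arrays of each tissue, and none was saturated.

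The tissue labels were checked against marker genes chosen for each tissue. All 10 skeletal muscle markers that had a probe, of 13 listed, were higher in GM than in liver and higher in GM than in kidney. All 6 liver markers with a probe, of 12, were higher in liver than in kidney, and all 6 were higher in liver than in GM. All 4 kidney markers with a probe, of 12, were higher in kidney than in either of the other tissues. These counts used the call described next, and they were the same under each of the 3 other scalings of the arrays described below. Several markers were near the background outside their own tissue. SLC12A1 was well above background on 0 GM and 0 liver arrays, and TNNC2 on 0 liver and 3 kidney arrays. Such markers were tested because of their own tissue, so for them the call adds nothing to the difference in level.

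GM was compared with liver and with kidney, and liver with kidney, to describe how the level of each gene differs between tissues of the same pigs. A probe was called higher in a tissue when limma gave an adjusted p below 0.05 and a log2 ratio of at least 1. That fit did not pair the tissues of a pig, so its p values are not within-pig tests. The numbers of pigs printed beside them are separate counts. Each slide held arrays of a single tissue, so tissue and slide cannot be told apart. In whole tissue, fewer cells of a type and less RNA per cell cannot be told apart either.

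Most of these genes had more signal in GM than in liver. Of the 25 probes, 16 were called higher in GM, where 15 percent of all tested probes were, and 1 was called higher in liver, where 14.6 percent of all were. Among probes well above background on all arrays, which leaves out COX8H, 14 of 23 were called higher in GM, against 21.8 percent of all such probes. Higher in liver was 1 of the 23, against 15.7 percent. The median log2 ratio of GM to liver was 1.34 over the 25 probes and -0.00873 over all probes. By gene, with the brightest probe standing for each, 11 of the 18 were higher in GM and 1 was higher in liver. The 4 genes of complex I were all higher in GM, as were the 1 gene of complex III, 4 of the 7 of complex IV and 2 of the 4 of the ATP synthase, and neither gene of complex II reached a log2 ratio of 1.

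By the mean level of the brightest probe, kidney lay between GM and liver for most of the genes, though not each step was a tested difference. Among these genes GM and kidney did not reach an adjusted p below 0.05 in limma for COX7A1, ATP5J2 and SDHB. Liver and kidney did not reach it for ATP5O, NDUFC1 and SDHD. GM was called higher than kidney for 6 of the 25 probes, against 15.3 percent of all probes, and lower for 2, against 17.1 percent. Among probes well above background on all arrays, which leaves out COX8H, 4 of 23 were called higher in GM, against 22.7 percent of all such probes. Lower in GM were 2 of the 23, against 19.5 percent. The median log2 ratio of GM to kidney was 0.325 over the 25 probes and -0.0477 over all. No probe was called higher in liver than in kidney by limma, against 11.4 percent of all probes, although 2 of the 25 had a ratio above 0 at an unadjusted p below 0.05, both of them COX8H probes whose signal was near the background in liver and kidney. Kidney was called higher than liver for 8 probes, against 13.5 percent of all, and the median log2 ratio of liver to kidney was -0.728 over the 25 probes and -0.0176 over all. An adjusted p below 0.05, with no limit on the size, was reached by all 25 probes in GM against liver, by 21 in GM against kidney and by 21 in liver against kidney, the last with both COX8H probes among them, for which a test between those tissues has no meaning.

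**Figure D1:**
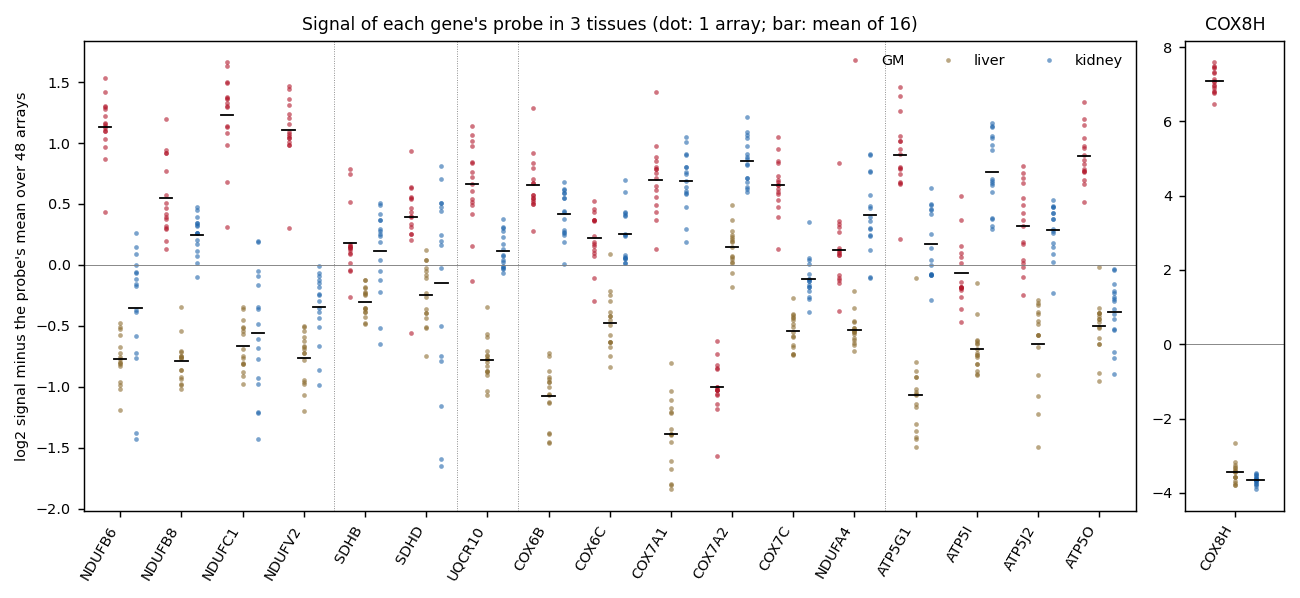
Level of each of the 18 genes on each array, as the log2 intensity of its brightest probe minus that probe's mean over the 48 arrays; dots are arrays and bars are the means of the 16 arrays of a tissue, and COX8H has a panel of its own. COX7A2 is the gene whose 16 GM arrays all lie below its liver and kidney arrays, and COX7A1 has its GM and kidney arrays at one height and its liver arrays lower.

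The counts against kidney depended on how the arrays were put on a common scale. Quantile normalization gives every array the same distribution, and under it the median log2 ratio over all probes was close to 0 in each pair of tissues. When the median signal was instead divided by its 75th percentile on each array, the median over all probes moved to 0.251 for GM to liver, 0.601 for GM to kidney and 0.378 for liver to kidney. On that scale 17 of the 25 probes were called higher in GM than in kidney, against 32.3 percent of all probes, and 1 was called higher in kidney, against 13.1 percent. Liver and kidney had 2 each, against 17.2 and 11.3 percent of all. With the processed signal at the 75th percentile, GM had 19 probes (24.2 percent of all) and kidney 1 (22.4 percent), and liver had 1 (18.6 percent) against 2 in kidney (19.6 percent). The median of the probes detected on every array, used as the scale, gave 15 (27.4 percent of all) and 1 (14.5 percent), and then 2 (17.3 percent) and 2 (11.2 percent). On each of these scales the probes called higher in liver than in kidney were COX8H probes, dim in both tissues, and those calls have no meaning.

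Relative to all probes, the directions of the medians held on each of these scales. The 25 probes' median minus that of all probes was 1.35 for GM to liver, 0.373 for GM to kidney and -0.71 for liver to kidney under quantile normalization. Over the 23 probes well above background on all arrays, against all such probes, these were 1.05, 0.191 and -0.72. With the 75th percentile of the median signal the same differences were 1.43, 0.606 and -0.599, and with that of the processed signal they were 1.62, 1.24 and -0.179. With the first of these 18 of the 25 probes were called higher in GM than in liver and 1 higher in liver, against 16.7 and 12.5 percent of all probes. With the second the counts were 19 and 0 by limma, against 22.7 and 20.3 percent, and COX7A2 kept a ratio below 0.

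Complex I takes electrons from NADH, and its 4 genes were all called higher in GM than in liver. NDUFB6 (A_72_P035591), an accessory subunit of the membrane arm, ran from 13.66 to 14.76 with a median of 14.38 in GM and from 12.04 to 12.76 with a median of 12.45 in liver. Its kidney levels ran from 11.80 to 13.49 with a median of 13.07. The GM arrays were all above the liver and kidney arrays, while kidney and liver overlapped. The level in GM was 14.36 ± 0.25 (SD, n = 16) and 3.76-fold that in liver (log2 ratio 1.91, adjusted p 1.68e-19, higher in 16 of 16 pigs). Against kidney it was 2.81-fold (log2 ratio 1.49, adjusted p 1.39e-15, 16 of 16 pigs).

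NDUFC1 (A_72_P223737), a small subunit of the same arm, ran from 13.45 to 14.81 with a median of 14.46 in GM, from 12.17 to 12.80 with a median of 12.43 in liver, and from 11.72 to 13.35 with a median of 12.60 in kidney. Again no GM array overlapped with either of the other tissues. The ratio of GM was 3.73-fold to liver (log2 1.90, adjusted p 4.99e-18) and 3.45-fold to kidney (log2 1.79, adjusted p 4.4e-17), each in the same direction in 16 of 16 pigs.

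NDUFV2 (A_72_P008021) encodes an iron-sulphur subunit of the arm that oxidizes NADH. It ran from 14.42 to 15.59 with a median of 15.21 in GM, from 12.92 to 13.62 with a median of 13.42 in liver, and from 13.14 to 14.11 with a median of 13.85 in kidney. GM stood clear of both, and liver and kidney overlapped. The ratio of GM was 3.66-fold to liver (log2 1.87, adjusted p 1.15e-23) and 2.75-fold to kidney (log2 1.46, adjusted p 2.12e-19), in 16 of 16 pigs each. Its other probe gave a log2 ratio of 1.17 to liver, also called, and one of 0.96 to kidney, under the limit of 1.

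NDUFB8 (A_72_P014556), a further accessory subunit, differed from the other 3 in its kidney level. It ran from 15.36 to 16.42 with a median of 15.66 in GM, from 14.20 to 14.88 with a median of 14.46 in liver, and from 15.12 to 15.70 with a median of 15.49 in kidney. GM and kidney overlapped, and liver lay below both. The log2 ratio of GM to kidney was 0.30 (SE 0.08), against 1.34 to liver, and liver was 2.05-fold below kidney (log2 ratio -1.04, adjusted p 1.78e-15, lower in liver in 16 of 16 pigs). On other scales the log2 ratio of liver to kidney went up to -0.412, under the limit for a call.

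Complex II oxidizes succinate and is shared with the tricarboxylic acid cycle, and neither of its genes was called in any pair of tissues under quantile normalization, although both passed a log2 ratio of 1 of GM to kidney on another scale. SDHB (A_72_P178116), the iron-sulphur subunit, was at 15.60 ± 0.28 in GM, 15.12 ± 0.12 in liver and 15.53 ± 0.35 in kidney (SD, n = 16 each). The groups overlapped in every pair. The log2 ratio of GM to liver was 0.48 (adjusted p 2.21e-05, higher in 15 of 16 pigs), and that of GM to kidney was 0.07 (adjusted p 0.555), with up to 1.1 on other scales. The ratio of liver to kidney was -0.42 (adjusted p 1.91e-04) and its direction flipped to 0.262 under another scale.

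SDHD (A_72_P177861), which anchors the complex in the membrane, varied more in kidney than any other of the genes did in any tissue, with an SD of 0.81 and a range from 12.78 to 15.25. In GM it was at 14.83 ± 0.32 and in liver at 14.19 ± 0.25 (SD, n = 16 each), and all 3 tissues overlapped. The log2 ratio of GM to liver was 0.64 (adjusted p 0.00171, 15 of 16 pigs), that of GM to kidney 0.55 (adjusted p 0.00658, 10 of 16 pigs, up to 1.29 on other scales) and that of liver to kidney -0.10 (adjusted p 0.658), the last with a direction that flipped on other scales.

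Complex III passes electrons to cytochrome c and was represented by UQCR10 (A_72_P268504), one of its small subunits. It ran from 16.01 to 17.29 with a median of 16.84 in GM, from 15.08 to 15.80 with a median of 15.36 in liver, and from 16.08 to 16.53 with a median of 16.22 in kidney. Liver lay below both other tissues without overlap, and GM and kidney overlapped. The ratio of GM to liver was 2.73-fold (log2 1.45, adjusted p 3.82e-20, 16 of 16 pigs), and the log2 ratios of GM to kidney and of liver to kidney were 0.55 and -0.90. On other scales these went up to 1.75 and -0.0951.

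Complex IV, cytochrome c oxidase, hands the electrons to oxygen, and its genes were the least alike. COX8H (A_72_P223572) encodes the form of subunit VIII found in heart and skeletal muscle. It ran from 15.53 to 16.67 with a median of 16.15 in GM. In liver its signal was above the background on 1 of 16 arrays and in kidney on 0 of 16, with means of 5.63 and 5.42. A ratio against such a signal is a lower bound, for which each dim array was given the larger of its own value and the dimmest signal that stood clear of the background on that array. COX8H was at least 1437-fold higher in GM than in liver and at least 1625-fold higher than in kidney, in 16 of 16 pigs each. Both of its probes were tested because of their signal in GM alone, so the test adds nothing to these bounds. Its other probe gave at least 839-fold and at least 1045-fold. The bounds hold for the quantile-normalized signal alone, since the fitted log2 ratio ran from 9.42 to 13.7 against liver and from 9.53 to 14.6 against kidney over other scales and background corrections, and from 8.69 for the other probe.

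COX7A1 and COX7A2 encode the muscle form and the widely expressed form of subunit VIIa, and their tissue orders differed. COX7A1 (A_72_P303109) ran from 15.85 to 17.14 with a median of 16.46 in GM, from 13.88 to 14.91 with a median of 14.33 in liver, and from 15.91 to 16.77 with a median of 16.43 in kidney. GM and kidney overlapped almost fully, and no liver array reached either. GM was 4.26-fold above liver (log2 ratio 2.09, SE 0.10, adjusted p 2.48e-24, 16 of 16 pigs) and kidney 4.23-fold above liver (liver to kidney -2.08, adjusted p 5.24e-24, lower in liver in 16 of 16 pigs). Between GM and kidney the log2 ratio was 0.01 (adjusted p 0.932, higher in GM in 9 of 16 pigs), and it went up to 1.12 on other scales.

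COX7A2 (A_72_P203272) was the 1 gene with less signal in GM than in liver. It ran from 12.12 to 13.06 with a median of 12.67 in GM, from 13.51 to 14.18 with a median of 13.86 in liver, and from 14.29 to 14.90 with a median of 14.54 in kidney. The 3 tissues did not overlap. The log2 ratio of GM was -1.15 to liver (2.22-fold lower, adjusted p 3.26e-19) and -1.86 to kidney (3.62-fold lower, adjusted p 1.43e-27), and GM was lower in 16 of 16 pigs in each case. On the other scales the ratios stayed between -1.15 and -0.954 against liver and between -1.86 and -1.23 against kidney, so the direction held, while 1 scale brought the ratio to liver under the limit for a call.

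COX6B (A_72_P211467), a subunit on the outer face of the complex, ran from 16.26 to 17.27 with a median of 16.56 in GM, from 14.52 to 15.26 with a median of 14.95 in liver, and from 15.99 to 16.67 with a median of 16.42 in kidney. Liver was apart from both, and GM and kidney overlapped. GM was 3.32-fold above liver (log2 ratio 1.73, adjusted p 1.46e-24, 16 of 16 pigs), and liver was 2.82-fold below kidney (log2 ratio -1.50, adjusted p 8.69e-22, 16 of 16 pigs), where 3 other scales brought the ratio under the limit for a call, up to -0.741. Its other 2 probes were called in the same directions, with log2 ratios of 1.54 and 1.58 of GM to liver and of -1.06 and -1.30 of liver to kidney. On other scales the ratio of -1.06 went up to -0.925, under the limit for a call, and that of -1.30 up to -1.13.

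COX7C (A_72_P232697), another small subunit, was 2.29-fold higher in GM than in liver (log2 ratio 1.19, adjusted p 3.75e-21, 16 of 16 pigs) with no overlap, and its log2 ratio to kidney was 0.77. COX6C (A_72_P122981), which has a single form, had log2 ratios of 0.69 of GM to liver and -0.03 of GM to kidney, which went up to 1.12 and 1.21 on other scales, so that the second flipped in direction, and its other probe reached 1.36 against kidney. NDUFA4 (A_72_P041381) carries a complex I name but is counted here with complex IV, to which its protein binds. Its log2 ratio of GM to liver was 0.65, under the limit, whereas its other probe gave 1.07 and was called. Against kidney the NDUFA4 probes had opposite signs, -0.29 and 0.32, and on other scales the first flipped to as much as 0.662 and the second went up to 1.29.

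Under quantile normalization, ATP5G1 and ATP5O of the ATP synthase genes had most signal in GM and ATP5I had most in kidney. ATP5J2 did not differ between GM and kidney (adjusted p 0.781 in limma). ATP5G1 (A_72_P177586), one of the genes for the rotor subunit c, ran from 15.41 to 16.66 with a median of 16.05 in GM, from 13.70 to 15.09 with a median of 14.13 in liver, and from 14.91 to 15.83 with a median of 15.29 in kidney. GM and liver did not overlap, while kidney overlapped with both. GM was 3.92-fold above liver (log2 ratio 1.97, adjusted p 2.21e-21, 16 of 16 pigs), and liver was 2.36-fold below kidney (log2 ratio -1.24, adjusted p 6.77e-14, 16 of 16 pigs). The second ratio lost its call on 3 other scales, where it went up to -0.728.

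ATP5O (A_72_P178181), which ties the catalytic head to the outer stalk, ran from 13.96 to 14.78 with a median of 14.29 in GM, from 12.49 to 13.42 with a median of 12.99 in liver, and from 12.55 to 13.41 with a median of 13.11 in kidney. GM stood clear of liver and kidney, which shared one range. The ratio of GM was 2.63-fold to liver (log2 1.39, adjusted p 2.91e-20) and 2.42-fold to kidney (log2 1.28, adjusted p 8.76e-19), in 16 of 16 pigs each.

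ATP5I (A_72_P177636), subunit e of the membrane part, had its highest levels in kidney. It ran from 15.79 to 16.82 with a median of 16.08 in GM, from 15.35 to 16.10 with a median of 15.52 in liver, and from 16.55 to 17.42 with a median of 16.95 in kidney. Kidney and liver did not overlap, and GM overlapped with both. Liver was 2.73-fold below kidney (log2 ratio -1.45, adjusted p 1.22e-18, 16 of 16 pigs), with -1.52 for its other probe, and on other scales these ratios went up to -0.611 and -0.736, under the limit for a call. GM was below kidney by a log2 ratio of -0.83 with the first probe and -1.09 with the other, which was called, but the direction of both flipped on another scale, to 0.339 and 0.056. ATP5J2 (A_72_P077611), subunit f, had log2 ratios of 0.97 of GM to liver and 0.04 of GM to kidney, with 1 liver array missing. On other scales its ratio of GM to liver went up to 1.34, past the limit of 1. Among the other genes without a call between GM and kidney, other scales gave log2 ratios of GM to kidney of up to 1.33 for NDUFB8, 1.41 for COX6B, 1.74 for COX7C, 1.64 for ATP5G1 and 1.06 for ATP5J2.

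The array held other genes of mitochondrial energy metabolism from lists made by function, counted by the same call. Of 15 tricarboxylic acid cycle genes, which feed the chain with NADH and succinate, 7 had a probe. Higher in GM than in liver were 5 of the 7, with a median log2 ratio of 2.31, and higher in GM than in kidney 4, with a median of 1.19, while 2 were higher in kidney than in liver. On the scales set by the 75th percentile the counts for GM were 7 against liver and 6 to 7 against kidney. CS, the first enzyme of the cycle, had log2 ratios of 2.68 of GM to liver and 0.82 of GM to kidney, and IDH3A, a subunit of the isocitrate dehydrogenase that uses NAD, had 3.08 and 2.83. Under all the scales that were run, none of the 7 genes changed direction in GM against liver or GM against kidney.

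Of 11 genes for cytochrome c and for carriers of adenine nucleotides, phosphate and anions, together with mitochondrial creatine kinase, 6 had a probe. In GM against liver 5 were higher in GM and 0 in liver by limma, and in GM against kidney 5 were higher in GM and 1 in kidney. CKMT2, the creatine kinase of muscle mitochondria, had the largest ratio of them, 455-fold over liver (log2 ratio 8.83) and a log2 ratio of 7.21 over kidney. SLC25A6, an adenine nucleotide carrier, went the other way, with log2 ratios of -0.47 of GM to liver and -1.96 of GM to kidney, and it stayed negative on the other scales, up to -0.112 and -0.555.

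Among 17 regulators of mitochondrial biogenesis, 4 had a probe, and none of the 4 was called higher in GM than in liver or in kidney by limma, although at an adjusted p below 0.05 alone GABPB1 and TFAM were above kidney by log2 ratios of 0.43 and 0.56. PPARD, near the background in GM, reached a log2 ratio of 1.15 to kidney on another scale. TFAM, which packs mitochondrial DNA and takes part in starting its transcription, was lower in GM than in liver (log2 ratio -1.21) and higher in liver than in kidney (1.77). PPARGC1A, a coactivator of these genes, was lower in GM than in kidney (log2 ratio -1.72) and the most variable of the 4 in GM, at 12.58 ± 1.45 (SD, n = 16). PET100, the 1 gene with a probe of 33 other assembly factors, was not called in any pair under quantile normalization, with log2 ratios of 0.46 of GM to liver, 0.88 of GM to kidney and 0.42 of liver to kidney. Of GM to kidney it was called on each of the 3 other scales, with a log2 ratio of up to 1.54. Of the 13 subunits encoded by mitochondrial DNA 0 had a probe that could be matched by its accession.

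The lists for other cells and fibre types gave these counts. Of the slow fibre genes 6 of 10 had a probe, and 5 were higher in GM than in liver and 1, ATP2A2, lower. Of the fast fibre genes 8 of 12 had a probe and all 8 were higher in GM than in liver and in kidney. Of the adipocyte markers 6 of 7 had a probe, with 4 higher in GM than in liver and 5 higher in GM than in kidney. Of the blood and immune cell markers 6 of 12 had a probe, with 5 lower in GM than in liver and 3 higher in liver than in kidney. Of all tested probes 15 percent were called higher in GM than in liver and 15.3 percent higher in GM than in kidney. Called higher in liver were 14.6 percent against GM and 11.4 percent against kidney. Several list genes were near the background elsewhere, such as MYH2, well above it on 1 liver and 3 kidney arrays, and CD4, on 0 GM arrays. Such genes were tested because of the tissue where they were high, so their calls add nothing as tests. The part of these cells and fibre types in the differences between tissues was not tested.

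F2 E was compared with F2 C in each tissue to ask whether the diet of the F0 boars was followed by a difference in these genes among their F2 descendants. No probe of the 18 genes reached an adjusted p below 0.05 in limma in any tissue. F2 E and F2 C overlapped for every probe of these genes, and of all tested probes 0.453 percent in GM, 0.0763 percent in liver and 0.0297 percent in kidney had no overlap. The ratios lay on both sides of 0 in each tissue. In GM and kidney each slide held arrays of a single line, so line and slide cannot be told apart there, while in liver 2 of the 4 slides held both lines.

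In GM, 0 of 25 probes passed, against 0.761 percent of all tested probes. At an unadjusted p below 0.01 there were 0 of 25 by limma and 0 by the two-sided test of the study's methods, against 5.71 percent of all by limma, and at an unadjusted p below 0.05 there was 1 by either, against 16.1 percent of all. The log2 ratios of F2 E to F2 C ran from -0.17 to 0.39 with a median of 0.0355, against -0.0182 over all probes, and 15 of 25 were above 0, against 46.6 percent of all. With 1 pig left out the median over the 25 probes ran from -0.0508 to 0.107. By gene, 9 ratios were above 0 and 9 below. Of the 4 genes of complex I, 3 had a ratio below 0, and of the 4 of the ATP synthase 3 had one above 0.

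In liver, 0 of 23 probes passed, against 0.0937 percent of all. The unadjusted p was below 0.01 for 0 probes, against 2.45 percent of all, and below 0.05 for 0, against 8.32 percent of all, both by limma and with the same counts of 0 by the test of the study's methods. The log2 ratios ran from -0.19 to 0.12 with a median of -0.0286, against -0.0161 over all probes, and 8 of 23 were above 0. Over the alternatives run, other than leaving out a pig, this median went from -0.0272 down to -0.203. All 4 genes of complex I had a ratio below 0 in liver. In kidney NDUFB8, NDUFC1 and NDUFV2 had -0.02 each, and NDUFB6 had -0.14, which turned to 0.166 without the pair of dim kidney arrays. Over all probes 46.2 percent of the ratios in liver and 46.4 percent in kidney were above 0. The 2 probes of COX8H were too dim to be tested in liver and kidney.

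In kidney, 0 of 23 probes passed, against 0.0119 percent of all. There were 0 probes at an unadjusted p below 0.01, against 0.998 percent of all, and 0 below 0.05, against 3.84 percent, by limma and by the other test alike. The log2 ratios ran from -0.14 to 0.12 with a median of 0.0104, against -0.0125 over all probes, and 12 of 23 were above 0. This median ran from -0.0262 to 0.0511 with 1 pig left out and from -0.0391 to 0.0817 over the other alternatives. The widest interval was that of SDHD, whose log2 ratio was -0.12 with a 95% confidence interval from -0.82 to 0.59.

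**Figure D2:**
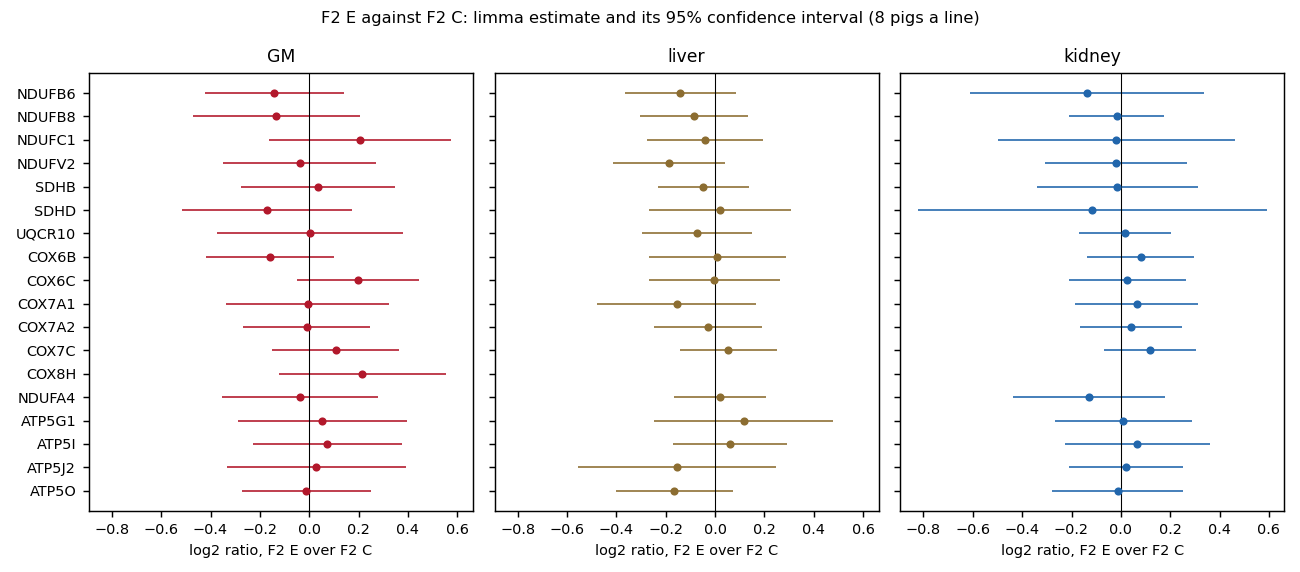
Log2 ratio of F2 E to F2 C for the brightest probe of each gene in GM, liver and kidney, with the 95% confidence interval from limma (8 pigs in each line). Every interval includes 0, and COX8H appears in GM alone.

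By the brightest probe of each gene, the lowest p values in GM were those of COX6C and COX8H, both of complex IV. COX6C ran from 15.86 to 16.66 with a median of 16.36 in F2 C and from 16.27 to 16.76 with a median of 16.59 in F2 E. The lines overlapped between 16.27 and 16.66. The level was 16.33 ± 0.26 in F2 C and 16.53 ± 0.17 in F2 E (SD, n = 8 each). The log2 ratio was 0.20 (95% confidence interval -0.05 to 0.44, exact permutation p 0.0985, adjusted p 0.417), with 6 of 8 F2 E pigs above the F2 C median. COX8H ran from 15.14 to 16.22 with a median of 15.67 in F2 C and from 15.45 to 16.36 with a median of 15.95 in F2 E. Again the lines overlapped, and the log2 ratio of COX8H was 0.22 (-0.12 to 0.55, exact permutation p 0.219, adjusted p 0.523, 6 of 8 pigs).

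Of the other genes named by the same rule in GM, COX6B had a log2 ratio of -0.16 (adjusted p 0.545, 2 of 8 F2 E pigs above the F2 C median), but its other 2 probes had 0.13 and 0.12, and the median over its probes was 0.115. NDUFC1 had 0.20 (adjusted p 0.584, 6 of 8), which became -0.0242 without the GM arrays of F2 C replicates 3 and 4. NDUFB6 had -0.14 (adjusted p 0.623, 2 of 8), which became -0.0453 without F2 E replicate 2. With a single pig left out the ratios in GM ran from 0.129 to 0.246 for COX6C, 0.134 to 0.288 for COX8H, -0.212 to -0.073 for COX6B and 0.0787 to 0.282 for NDUFC1. The second ATP5I probe (A_72_P077116) was the 1 probe with an unadjusted p below 0.05 in GM and was picked out after its values were seen. Its levels ran from 14.86 to 15.79 with a median of 15.13 in F2 C and from 15.35 to 16.10 with a median of 15.46 in F2 E. All 8 F2 E pigs were above the F2 C median, though the lines overlapped, with a log2 ratio of 0.39 (0.09 to 0.69, exact permutation p 0.0176, adjusted p 0.19). The brighter ATP5I probe had a log2 ratio of 0.07 (adjusted p 0.836, 6 of 8).

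In liver the gene nearest to a difference, by the brightest probe of each, was NDUFV2. It ran from 13.20 to 13.77 with a median of 13.62 in F2 C and from 13.06 to 13.73 with a median of 13.40 in F2 E. The lines overlapped, with 1 of 8 F2 E pigs above the F2 C median, but the lowest F2 C value came from a single array, replicate 6, and the next F2 C pig was at 13.55. The log2 ratio was -0.19 (95% confidence interval -0.41 to 0.04, exact permutation p 0.0797, adjusted p 0.686). Its other probe had -0.06 (adjusted p 0.943), with 5 of 8 F2 E pigs above the F2 C median, and the median over both probes was -0.121. ATP5O had -0.17 (adjusted p 0.747, 2 of 8 pigs above the F2 C median), NDUFB6 -0.14 (adjusted p 0.774, 2 of 8), COX7A1 -0.16 (adjusted p 0.832, 3 of 8) and NDUFB8 -0.09 (adjusted p 0.868, 1 of 8). Over the same alternatives the ratios stayed below 0 and went down to -0.296 for NDUFV2, -0.398 for ATP5O, -0.277 for NDUFB6, -0.39 for COX7A1 and -0.245 for NDUFB8, with no adjusted p under 0.367. With a single pig left out the 5 ratios lay between -0.245 and -0.0548.

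In kidney it was COX7C, which ran from 15.05 to 15.42 with a median of 15.21 in F2 C and from 15.23 to 15.67 with a median of 15.27 in F2 E. All 8 F2 E pigs were above the F2 C median, and the lines overlapped. The log2 ratio was 0.12 (95% confidence interval -0.07 to 0.31, exact permutation p 0.0915, adjusted p 1). NDUFA4 had -0.13 (3 of 8), COX6B 0.08 (6 of 8), NDUFB6 -0.14 (5 of 8) and COX7A1 0.06 (4 of 8), each with an adjusted p of 1. The other NDUFA4 probe had -0.03 (4 of 8), and the other COX6B probes 0.09 (6 of 8) and -0.09 (4 of 8), so that COX6B had no single direction. With a single pig left out they ran from -0.199 to -0.0682, 0.0327 to 0.121, -0.231 to -0.00308 and 0.00325 to 0.12 in the same order, and COX7C from 0.0709 to 0.147. Without the pair of dim kidney arrays NDUFA4 and NDUFB6 changed sign, to 0.0103 and 0.166.

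Whether the ratio of F2 E to F2 C differed between tissues was tested on the 48 arrays. The 2 COX8H probes were too dim in liver and kidney for this to be a test. None of the other 23 probes passed in limma in any pair of tissues, against 0.0928 percent of all probes for GM and liver, 0.0377 percent for GM and kidney and 0.0203 percent for liver and kidney. At an unadjusted p below 0.05 there were 0 of the 23 in each pair, against 7.11, 5.31 and 2.13 percent of all probes in the same order, and the test of the study's methods has no such form. The differences between log2 ratios ran from -0.20 to 0.32 for GM and liver, from -0.24 to 0.24 for GM and kidney and from -0.22 to 0.16 for liver and kidney.

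The tested genes of the other lists did not pass between the lines either, with an adjusted p of at least 0.05 for each in limma in GM, liver and kidney. Not all of the list genes could be tested in each tissue, and of the 8 fast fibre genes with a probe 3 were tested in liver. At an unadjusted p below 0.05 in limma there were 3 in GM (PPARD, MYH2 and CD8A), 2 in liver (CALB1 and FABP4) and 2 in kidney (APOC3 and TF). Of all tested probes 16.1 percent in GM, 8.32 percent in liver and 3.84 percent in kidney were below that limit. The number of list genes tested differed between tissues and some lists share genes, so no share of the list genes is set beside these percentages. PPARD was well above background on 5 of 16 GM arrays and CALB1 on 9 of 16 liver arrays, so that their ratios rest on signals near the background. The median log2 ratio of F2 E to F2 C in GM was -0.0392 for the tricarboxylic acid cycle, -0.165 for the carriers and -0.146 for the regulators, PPARD among them. In liver the same medians were -0.0154, 1.24e-06 and -0.0858, and in kidney -0.0313, -0.113 and 0.0477.

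Single arrays of a tissue also lay apart from one another. For each array, the level of each of the 18 genes was taken as its deviation from the gene's mean in that tissue, and the median over the genes was used. In GM the highest array was F2 C replicate 3 at 0.51, with the highest level of 11 of the 18 genes, and the lowest was F2 C replicate 4 at -0.56, with the lowest level of 11. They were on the same slide, and the line means were -0.01 ± 0.30 for F2 C and -0.00 ± 0.18 for F2 E (SD, n = 8 each). In kidney the lowest were F2 E replicates 5 and 7, the dim pair, at -0.26 and -0.21, and the highest was F2 C replicate 2 at 0.22. In liver the range was narrower, with F2 E replicate 2 highest at 0.21, and that pig was also the lowest F2 E pig in GM, at -0.24.

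**Figure D3:**
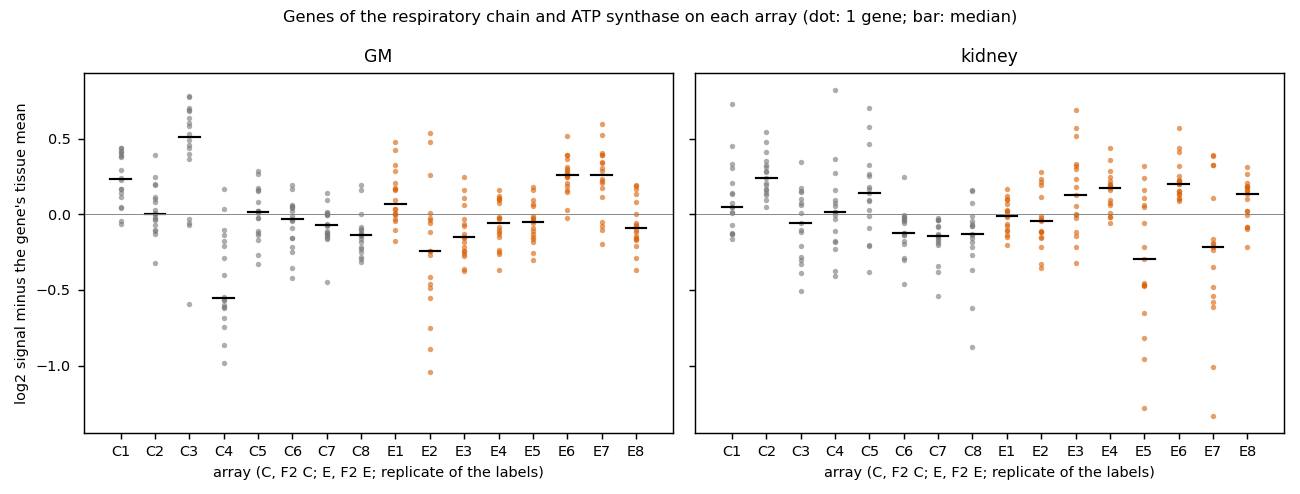
Log2 level of each of the 18 genes minus the gene's mean in the tissue, for each GM array and, without COX8H, each kidney array (C1 to C8 are F2 C and E1 to E8 are F2 E replicates, and E4 to E8 are not the same pigs in the GM and kidney panels), with a bar at the median over the genes shown. The kidney medians in the text include COX8H, so they can differ from the bars. The GM arrays C3 and C4 lie farthest from 0, at 0.51 and -0.56, and the kidney arrays E5 and E7 are the dim pair.

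Other gene groups moved on some of the same arrays. In GM F2 C replicate 3, the median deviation of the slow fibre genes was 1.85, that of the tricarboxylic acid cycle 0.523 and that of the carriers 0.652. In GM F2 C replicate 4 the slow fibre genes were at -1.33, but the cycle was at 0.0625. The lowest slow fibre value, -2.61, belonged to F2 C replicate 8, where the 18 genes were at -0.14. In GM F2 E replicate 2 the cycle was at -0.515 and the carriers at -0.488, while the slow fibre genes were at 0.504. In the dim kidney pair the cycle was at -0.782 and -0.6 and the carriers at -0.543 and -0.602.

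The summed linear signal of the slow fibre genes in GM ran from 135645 to 1697776 with a median of 763294.5 in F2 C and from 266161 to 1394650 with a median of 572424.5 in F2 E, and MYH7 was the brightest of them. That of the fast fibre genes, with TNNC2 the brightest, ran from 3238843 to 3535050 in F2 C and from 3260939 to 3435212 in F2 E. Local background in GM also differed between the lines, at 14 to 24 in F2 C and 26 to 28 in F2 E. The part of fibre type, signal and background in the levels of the 18 genes was not tested.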

How the data were processed

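The deposited files hold the signal intensity of each spot per the file headers, from Feature Extraction 10.5.1.1. The authors' median signal was quantile-normalized and taken as log2. Spots marked as outliers were set missing after this normalization, and the remaining values were averaged per probe. Tested probes had a signal over 25 that stood well above background on 50% or more of a group's arrays, and 2 or more unmarked arrays per group. Tests used limma 3.58.1 in R 4.3.3, with Benjamini-Hochberg adjustment over all tested probes, and exact two-sided permutation tests for single genes. A gene was represented by its brightest probe over the 48 arrays. Named for tissues were the 5 largest called log2 ratios in each direction of each pair and the genes of isoform families, SDHB and SDHD. Named for lines were the 5 genes with the lowest p in each tissue, and further genes completed each complex. The members and lists were chosen with earlier results of these data known. A gene was left out of the context lists after the fit, for a reason other than its values. Pairing by label number was not used, since correlations between same-numbered F2 C and F2 E arrays ran from -0.577 to 0.587. The authors' 3 comparison tables, which hold log2 ratios, ratios, p, false discovery rates and their normalized values, were not used.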

Additional observations from a re-analysis of the deposited data

Results flagged for a closer look

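Among the 108 groups of 8 arrays examined (18 genes, 3 tissues, both lines), 12 had a highest or lowest array far from the other 7, where chance marks about 1 in 20 groups. Levels are log2 intensities within the tissue. In GM, F2 C replicate 3 was far above the other F2 C pigs for COX6B, at 17.02 with the next at 16.53, and for SDHB, at 15.85 with the next at 15.21. F2 C replicate 4 was far below them for COX7A2, at 11.47 with the next at 12. In GM, F2 E replicate 2 was far below the other F2 E pigs for NDUFB6 (13.11, next 13.68), NDUFV2 (13.92, next 14.73) and SDHD (13.33, next 14.21). In liver the same pig was far above the other F2 E pigs for ATP5G1 (15.34, next 14.52) and NDUFB8 (15.11, next 14.66).

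The other 4 arrays each stood apart for 1 gene. In liver, F2 C replicate 8 was far above its group for ATP5O, at 13.57 with the next at 13.19. F2 C replicate 6 was far below it for NDUFV2 in liver, at 13.2 with the next at 13.55. The liver array of F2 C replicate 5 was far above its group for COX8H, at 6.61 with the next at 6.024, near the background. In kidney, F2 E replicate 7, one of the dim pair, was far above its group for COX7C, at 15.67 with the next at 15.42.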

How the results depend on the processing

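The counts of 0 between lines held under every alternative that was run, including the replicate block by label number (0, 0 and 0), and the tissue counts with the pig as a block were 17, 8 and 8. With 1 pig left out at a time the counts between lines and for the difference between tissues were 0 to 0, and the median log2 ratio of F2 E to F2 C ran from -0.0508 to 0.107 in GM, -0.0582 to 0.00013 in liver and -0.0262 to 0.0511 in kidney. The same leave-one-out counts were 17 to 18 for GM and liver (16 to 17 higher in GM, 1 to 1 in liver), 8 to 9 for GM and kidney (6 to 7 and 2 to 2) and 8 to 8 for liver and kidney (0 to 0 and 8 to 8). The median log2 ratio over member probes in liver, F2 E against F2 C, moved from -0.0286 to -0.199 with marked spots set missing before normalization, -0.161 with the processed signal and -0.158 with the median signal at the 75th percentile, -0.134 with the slide as a fixed block and -0.203 within slide 1, and the cause was not tested. At an unadjusted p below 0.01 the GM count was 0 to 1 probes. The processed signal at the 75th percentile gave 0 probes higher in liver than in GM, 20 called for GM and kidney (19 and 1) and 3 for liver and kidney (1 and 2). The median signal at that percentile gave 18 (17 and 1) and 4 (2 and 2), and the median of detected probes as the scale gave 16 (15 and 1) and 4 (2 and 2), those higher in liver than in kidney being COX8H probes near background. With F2 E arrays alone, 1 probe was higher in kidney than in GM. Among the genes named between lines, signs changed for NDUFC1 in GM (-0.0242, highest and lowest GM array left out), NDUFA4 and NDUFB6 in kidney (0.0103 and 0.166, dim pair left out) and COX6B in GM (0.115, median over its probes). The medians in GM, liver and kidney also crossed 0, that in liver going up to 0.00013. The cause was not tested. Tissue ratios crossed 0 under some alternative for ATP5I, COX6C and NDUFA4 between GM and kidney, and for ATP5O, COX6C, COX7C, NDUFC1, SDHB and SDHD between liver and kidney. The alternatives leaving out dim or extreme arrays, and normexp background correction on the median signal, were chosen after seeing the data. Normexp on the mean signal was planned but not run, since the files hold no such column. Signal over background limits COX8H, whose ratios to liver and kidney are lower bounds.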

Other observations

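ATPIF1, the inhibitor protein of the ATP synthase, has a symbol outside the rule that chose the 18 genes and was picked out after its values were seen. Its GM level was 15.70, its liver level 14.32 and its kidney level 15.25 (log2), with log2 ratios of 1.39 of GM to liver (adjusted p 1.82e-24), 0.45 of GM to kidney and -0.94 of liver to kidney. On other scales the ATPIF1 ratios went up to 1.43 of GM to kidney, past the limit for a call, and to -0.347 of liver to kidney. Between F2 E and F2 C its adjusted p in GM was 0.992, that for liver 0.75 and that for kidney 1.

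The summed linear signal of the liver markers in kidney arrays ran from 12629 to 23493 with a median of 17900 in F2 C and from 13758 to 78015 with a median of 37096 in F2 E, and TTR was the brightest of them. The 6 genes had a median log2 ratio of F2 E to F2 C of 0.423 in kidney, and none had an adjusted p below 0.05 in limma.

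The summed signal of the regulators of mitochondrial biogenesis in GM, of which PPARGC1A was the brightest, was 55070 in F2 C replicate 8 and 63985 in F2 E replicate 8, against medians of 5119.5 in F2 C and 5399 in F2 E.

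Levels of the same gene across pigs had a median within-group SD of 0.286 over the 18 genes in GM, 0.251 in kidney and 0.2 in liver.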
